A study of Mus musculus with 5 samples.

Results

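The 10 BCL2 family genes described here set the balance between survival and death at the mitochondrion, and they were chosen by symbol from the 46959 gene symbols counted in each library. All 10 were found in every library and all 10 passed the filter on low counts. The series compared D4M.3A cells carrying caMNK, a constitutively active form of the kinase MNK1 (n = 3 libraries), with D4M.3A cells carrying the empty vector pBABE, which the submitters used as the control (n = 2). D4M.3A is a mouse melanoma line from the C57BL/6 strain, derived from a tumour with mutant Braf. Both lines were at passages 7 to 12, and total RNA was sequenced and counted per gene. The libraries are described as biological replicates, with nothing said of separate cultures, so p-values measure the spread between these libraries. Each group is 1 transduced line, and what the kinase did cannot be told apart from anything else in which the lines differ.

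BCL2 family proteins meet on the outer membrane of mitochondria. The survival proteins MCL1, BCL-XL (from Bcl2l1), BCL-W (from Bcl2l2) and BCL2 bind and hold back the effectors BAX and BAK (from Bak1), which otherwise form pores that release cytochrome c. The BH3-only proteins BIM (from Bcl2l11), BMF, PUMA (from Bbc3) and NOXA (from Pmaip1) occupy the groove of the survival proteins, and some also activate the effectors. ERK signalling, which is driven by mutant BRAF in melanoma, marks BIM for degradation, and NOXA binds MCL1 in preference to the other survival proteins. MNK1 phosphorylates the cap-binding factor eIF4E, and Mcl1 is among the mRNAs whose translation is known to depend on eIF4E. RNA counts do not measure translation or protein.

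Each library held between 27827199 and 48794336 counts, and levels are given as CPM, a gene's reads scaled to the size of its library. The introduced gene Mknk1 measured 167, 155 and 168 CPM in caMNK and 15.2 and 16.7 CPM in pBABE, 10.2-fold higher in caMNK (edgeR adjusted p = 4.81e-06). Which species' cDNA was introduced, and how much of it, is not stated, and the Mknk1 count may miss reads of the construct and cannot part them from reads of the cells' own gene. Of 12 melanoma and pigment cell markers, Pax3 lay between 21.3 and 26.7 CPM and Mitf between 4.35 and 6.48 CPM, whereas Sox10, Tyr, Mlana and Kit were at 0.0697 CPM or less and Dct and Tyrp1 were at 0 in all 5 libraries, so the defining pigment genes were at or near 0. Of the list's 6 tested genes 2 rose and none fell, where 4.42% of all tested genes were called higher and 3.52% lower. These were Sox9 (46.4 ± 3.62 CPM in caMNK and 22.3 ± 1.68 CPM in pBABE, adjusted p = 0.00336 by edgeR) and Tfap2a (42.0 ± 3.12 CPM in caMNK and 28.4 ± 0.182 CPM in pBABE, adjusted p = 0.0146). Without caMNK replicate 1, 1 gene of the list was called, in a fit that called 1.51% of all genes. Tfap2a is overlapped by the antisense gene Gm26688, which had 1305 counts over all libraries against its 6843. The list's summed level was 118 to 127 CPM in caMNK and 82.3 CPM in both pBABE libraries. The caMNK libraries were less alike than the pBABE libraries: caMNK replicate 2 stood apart on the second principal component (−31.8, against 4.27 and 21.7 for caMNK replicates 1 and 3, and 2.65 and 3.19 in pBABE), which held 21.3% of the variance. RNA classes that vary with preparation moved with the groups. The summed level of 13 mitochondrial mRNAs was 18770 to 21670 CPM in caMNK and 12290 to 13530 CPM in pBABE. Of these, mt-Co2, mt-Atp6 and mt-Atp8 were at 0.244 CPM or less and mt-Co3 at 2.17 CPM or less, so they add almost nothing to the sum. The summed level of 12 nuclear non-coding RNAs was 754 to 1045 CPM in caMNK and 485 to 500 CPM in pBABE. Their part in the results below was not tested.

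Upstream sequences are shown for the members whose caMNK and pBABE libraries did not overlap and whose sequence was at hand, Mcl1 and Bcl2l11, and 1 short window each for Bax and Bbc3. The other matches in Bbc3, EGR elements at 2 starts and an E-box at another, are not shown. They are the 250 bases before the start in RefSeq (GRCm38.p6), which had entries for 9 of the 10 genes at 16 starts. Capitals mark matches, on either strand, to an E-box (CACGTG, the core bound by MYC), an EGR element (GCGNGGGCG, bound by EGR1), a FOXO element (GTAAACA), a CRE core (TGACGT) or an ETS element (CCGGAAG). The first is Mcl1, plus strand of chr3:95658471-95658720, and the second Bcl2l11, plus strand of chr2:128125788-128126037.
Mcl1: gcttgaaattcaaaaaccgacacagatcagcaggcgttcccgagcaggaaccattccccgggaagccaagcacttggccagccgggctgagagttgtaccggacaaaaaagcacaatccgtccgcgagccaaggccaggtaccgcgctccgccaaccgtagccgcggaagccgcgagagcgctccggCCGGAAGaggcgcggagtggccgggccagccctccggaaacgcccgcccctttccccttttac
Bcl2l11: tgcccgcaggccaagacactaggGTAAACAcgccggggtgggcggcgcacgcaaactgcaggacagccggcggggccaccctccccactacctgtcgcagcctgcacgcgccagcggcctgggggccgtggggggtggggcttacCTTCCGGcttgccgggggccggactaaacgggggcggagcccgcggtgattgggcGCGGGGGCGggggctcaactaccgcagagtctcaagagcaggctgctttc
The windows below are from Bax (minus strand of chr7:45466899-45466928, E-box) and Bbc3 (plus strand of chr7:16310082-16310111, FOXO element).
Bax: cctgcagcgagcgatgatgatCACGTGact
Bbc3: gtctggcgggttTGTTTACaaacaatgggg
Mcl1 held 1 match, an ETS element that begins 63 bases before the start. Bcl2l11 held an EGR, a FOXO and an ETS element at the start shown, and none of these motifs at its other start. Over the 16 starts, the E-box was in 2, the EGR element in 3, the FOXO element in 2, the CRE core in 1 (Bcl2) and the ETS element in 2. Among all 32851 starts of the same table, these motifs were in 6.02%, 4.70%, 3.17%, 6.47% and 6.91%, in that order. The matches are letters in a window and were not tested for binding.

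Across the 10 genes, 1 rose in caMNK and none fell past the threshold in the edgeR fit (adjusted p under 0.05 over 17026 genes), which is 1 in 10 where 7.94% of all tested genes were called, 4.42% higher and 3.52% lower. In the same fit 2 of the 10 had an unadjusted p under 0.05, where 25.9% of all genes did. DESeq2, limma-voom and both other scalings also called 1, in fits that called 7.17% to 10% of all genes. In 3 of the 10, Mcl1, Bcl2l11 and Pmaip1, every caMNK library lay above both pBABE libraries, which held for 22.3% of all tested genes, and in none did every caMNK library lie below both, which held for 22.6% of all genes. Neither share stands clear of this background. Rises made up 55.7% of the calls over all genes with TMM scaling and 68.2% with total-count scaling, and Pmaip1 was the 1 member called with both. The median log2 fold change was 0.02 over the 10 genes and −0.0021 over all genes tested. In bulk RNA, fewer cells expressing a gene and less RNA of it per cell cannot be told apart.

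**Figure D1:**
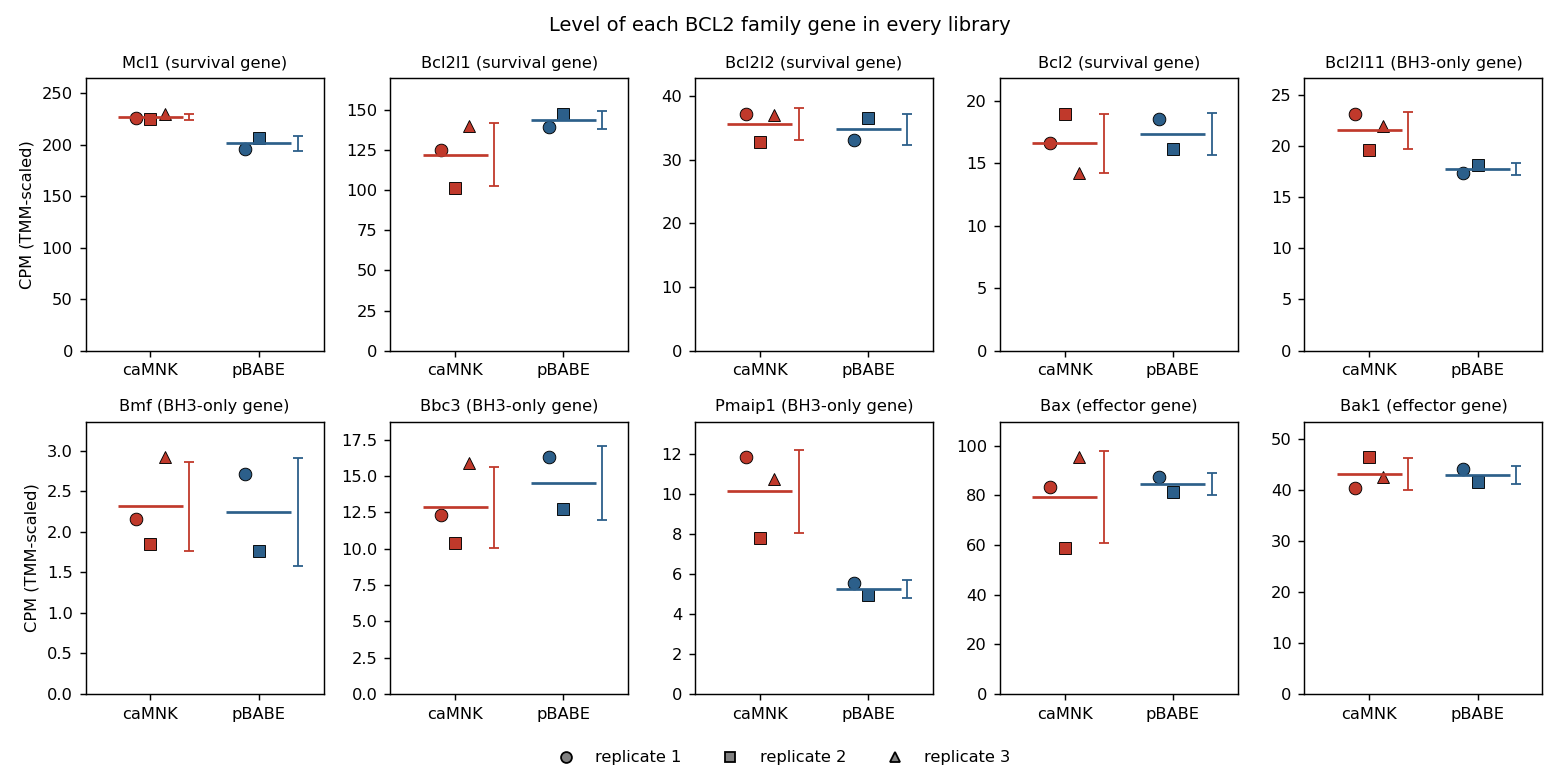
Level of each gene in every library, in CPM on TMM-scaled totals, with caMNK in red (n = 3) and pBABE in blue (n = 2); marks are libraries, horizontal lines are means and bars are ± SD. Pmaip1 lies between 7.80 and 11.9 CPM in caMNK, above 4.93 and 5.57 CPM in pBABE, and most other panels overlap.

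Among the survival genes, none passed the threshold. Mcl1 (chromosome 3, 95658788 to 95663176, plus strand), whose short-lived protein many melanoma cells depend on, measured 225, 224 and 230 CPM in caMNK and 196 and 206 CPM in pBABE. The 3 caMNK libraries were close together and all above pBABE. The difference was small, with means of 226 ± 2.79 CPM in caMNK and 201 ± 7.5 CPM in pBABE (SD, n = 3 and n = 2), or 1.13-fold on the scale of the fit (log2 fold change 0.17 ± 0.0810 (SE), adjusted p = 0.222 by edgeR). Its 95% confidence interval, from 0.991-fold to 1.28-fold, bounds the change in Mcl1 RNA that these libraries allow. Without caMNK replicate 2, the adjusted p was 0.0633.

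Bcl2l1 (chromosome 2, 152780668 to 152831728, minus strand) encodes BCL-XL from its long splice form and a pro-death protein from its short form, and counts per gene do not part the forms. It measured 125, 101 and 140 CPM in caMNK and 140 and 148 CPM in pBABE. The groups overlapped narrowly, since caMNK replicate 3, at 140.3 CPM, lay above pBABE replicate 1, at 139.7 CPM. The log2 fold change was −0.23 (95% confidence interval −0.53 to 0.07, edgeR adjusted p = 0.304). It was −0.12 without caMNK replicate 2 and −0.34 without caMNK replicate 3, and neither passed (adjusted p = 0.263 and 0.0802).

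Bcl2l2 (chromosome 14, 54883377 to 54888234), the BCL-W gene, measured 37.2, 32.7 and 36.9 CPM in caMNK and 33.1 and 36.5 CPM in pBABE. The read-through gene Gm20521 covers 4794 of its bases on the same strand and had 31848 counts over all libraries, against 6580 for Bcl2l2, so the reads in this stretch belong to either gene. Bcl2 (chromosome 1, 106538178 to 106714274) measured 16.6, 18.9 and 14.2 CPM in caMNK and 18.5 and 16.1 CPM in pBABE. Exons make up 5.20% of its 176097 bp span, the deposited length takes in the introns, and the antisense gene D630008O14Rik lies within it with 16.3% as many counts. Both genes overlapped between the groups, with log2 fold changes of 0.03 (95% confidence interval −0.20 to 0.26) for Bcl2l2 and −0.06 (−0.38 to 0.26) for Bcl2.

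The gene that rose was the BH3-only gene Pmaip1 (chromosome 18, 66458533 to 66465565, plus strand), a target of p53 and of the integrated stress response. It measured 11.9, 7.80 and 10.8 CPM in caMNK and 5.57 and 4.93 CPM in pBABE, from 340, 379 and 398 reads in caMNK and 232 and 159 reads in pBABE. Every caMNK library was above both pBABE libraries, and caMNK replicate 2 was the nearest to them. Means were 10.1 ± 2.10 CPM in caMNK and 5.25 ± 0.451 CPM in pBABE (SD, n = 3 and n = 2). The rise was 1.92-fold (log2 fold change 0.94 ± 0.192 (SE), 95% confidence interval 1.41-fold to 2.60-fold, adjusted p = 0.0247 by edgeR). The call was lost without either pBABE library and without caMNK replicate 1. Leaving out pBABE replicate 1 or pBABE replicate 2 leaves 1 library in that group, with log2 fold changes of 1.02 and 0.85. Without caMNK replicate 1 the log2 fold change was 0.82 (adjusted p = 0.090 by edgeR), in a fit that called 1.51% of all genes. Without caMNK replicate 2 the log2 fold change was 1.10 (adjusted p = 1.32e-05 by edgeR), in a fit that called 29.6% of all genes.

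Bcl2l11 (chromosome 2, 128126038 to 128162547, plus strand), the BIM gene, measured 23.1, 19.5 and 21.9 CPM in caMNK and 17.3 and 18.1 CPM in pBABE. All 3 caMNK libraries were higher than both pBABE libraries. With all libraries it did not pass, at 1.21-fold (log2 fold change 0.28 ± 0.1099 (SE), unadjusted p = 0.0339, adjusted p = 0.156 by edgeR). It passed without caMNK replicate 2 (log2 fold change 0.34, adjusted p = 0.00962), and then 2 of the 10 genes were called higher, in a fit that called 29.6% of all genes, 13.9% as higher and 15.7% as lower.

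The remaining BH3-only genes overlapped between the groups. Bbc3 (chromosome 7, 16308393 to 16318205), the p53 and FOXO target that encodes PUMA, measured 12.3, 10.4 and 15.9 CPM in caMNK and 16.3 and 12.7 CPM in pBABE (log2 fold change −0.18, 95% confidence interval −0.61 to 0.25). Bmf (chromosome 2, 118528757 to 118549687), whose protein is held at the actin and myosin cytoskeleton, was the least counted member, with 62, 90 and 108 reads in caMNK and 113 and 57 reads in pBABE. That is 2.16, 1.85 and 2.92 CPM in caMNK and 2.71 and 1.77 CPM in pBABE, and the interval of its fold was 0.670 to 1.55, the widest of the 10 on the log2 scale (−0.58 to 0.63). The 2 pBABE libraries alone differed by 0.36 for Bbc3 and 0.60 for Bmf on the log2 CPM scale.

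Neither effector gene passed. Bax (chromosome 7, 45461697 to 45466898, minus strand) measured 83.4, 58.8 and 95.3 CPM in caMNK and 87.5 and 81.5 CPM in pBABE (log2 fold change −0.10, 95% confidence interval −0.50 to 0.31, edgeR adjusted p = 0.782). The pBABE values fell inside the caMNK range, whose low end was caMNK replicate 2. Bak1 (chromosome 17, 27019810 to 27029009, minus strand) measured 40.4, 46.5 and 42.6 CPM in caMNK and 44.3 and 41.7 CPM in pBABE. It lies wholly within Ggnbp1 on the opposite strand, which had 10570 counts over all libraries against 8186 for Bak1, so reads of each may stand in the other's count. The log2 fold change of Bak1 was 0.0075 (95% confidence interval −0.21 to 0.23), or 0.864-fold to 1.17-fold.

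**Figure D2:**
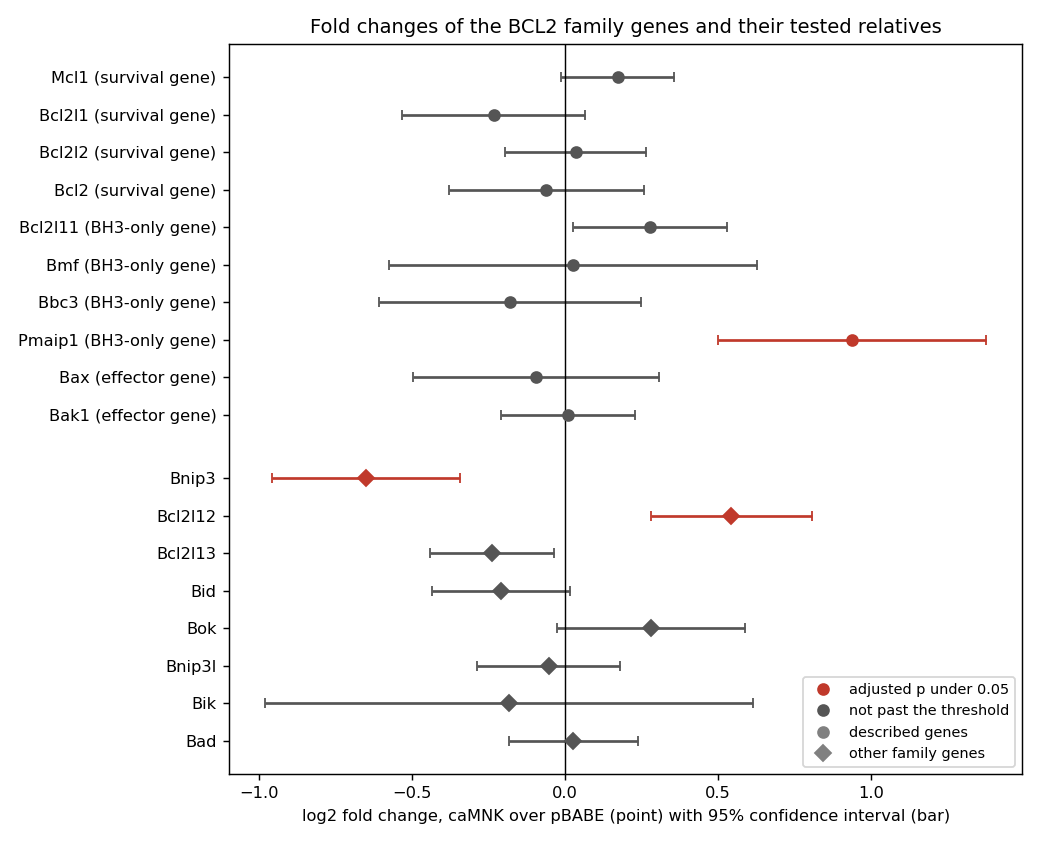
Log2 fold changes of caMNK over pBABE (points) with 95% confidence intervals (bars) for the 10 genes, grouped by role, and for the 8 tested relatives below them. Pmaip1, at 0.94, Bcl2l12, at 0.54, and Bnip3, at −0.65, are past the threshold (red).

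Several members were low in caMNK replicate 2, which also stood apart over all tested genes on the second principal component. On the log2 CPM scale, this library lay 0.60 below the mean of caMNK replicates 1 and 3 for Bax, a distance that 1.97% of 10521 genes (those averaging at least 3 on that scale) exceeded in either direction. The same difference, with the share of those genes that exceeded it, was −0.53 for Pmaip1 (3.67%), −0.43 for Bbc3 (8.56%), −0.43 for Bmf (8.72%) and −0.38 for Bcl2l1 (12.7%). Bmf averaged 1.23 on that scale, so it is not among those genes and its share sets it against better counted ones. For Bcl2l11 and Bcl2l2 the difference was −0.20 (44.4%) and −0.18 (50.4%), which is common among the 10521 genes. Mcl1 was level across the caMNK libraries (−0.02), and Bcl2 (0.30) and Bak1 (0.17) were higher in caMNK replicate 2. What set caMNK replicate 2 apart was not tested.

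Ratios of reads within a library do not depend on how libraries are scaled, and 7 were computed as a description. Pmaip1 had 5.26, 3.47 and 4.68 reads per 100 reads of Mcl1, the survival gene whose protein NOXA binds, in caMNK, against 2.84 and 2.39 in pBABE. These values did not overlap between the groups, and neither did the CPM of Pmaip1 alone. Mcl1 had 181, 221 and 164 reads per 100 reads of Bcl2l1 in caMNK and 140 and 140 in pBABE, with no overlap either. How often ratios of other genes do not overlap was not computed, and 44.9% of all tested genes did not overlap in CPM. For Bax per 100 reads of Bcl2l1 the values were 66.8, 58.0 and 67.9 in caMNK and 62.6 and 55.2 in pBABE, and for Bcl2l11 per 100 reads of Mcl1 they were 10.3, 8.71 and 9.54 in caMNK and 8.86 and 8.79 in pBABE. Both of these overlapped, as did the ratios of Bbc3, Bax and Bak1 to Mcl1.

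**Figure D3:**
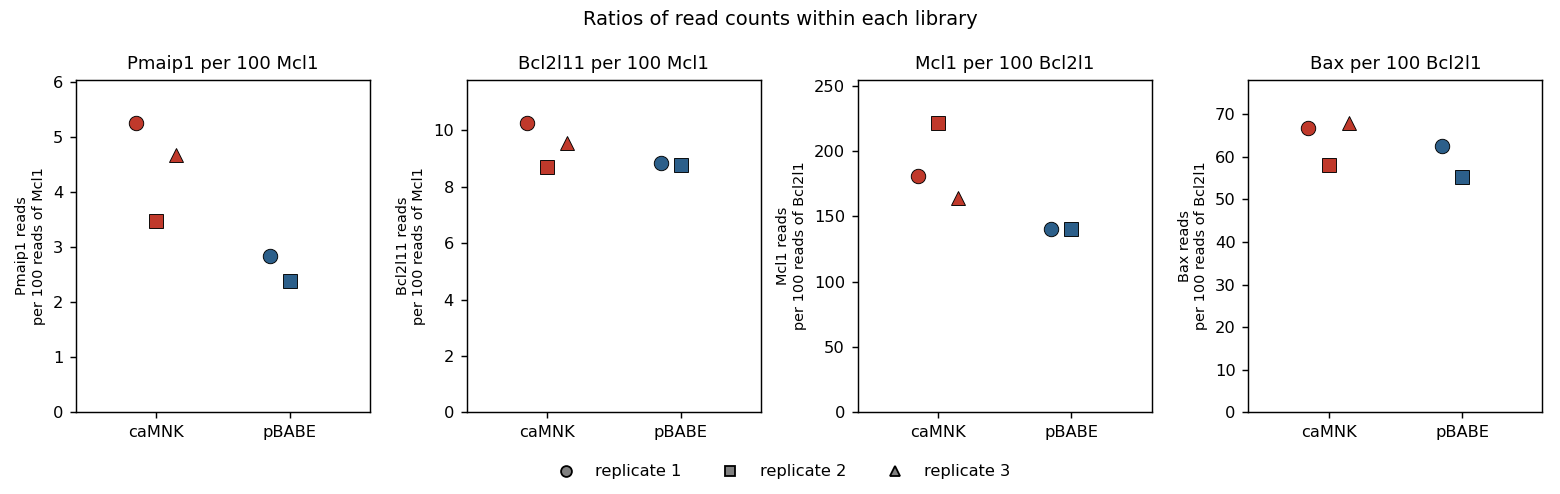
Reads of 1 gene per 100 reads of another within each library, for 4 of the 7 ratios, with caMNK in red and pBABE in blue. The ratios of Pmaip1 to Mcl1 and of Mcl1 to Bcl2l1 are higher in all 3 caMNK libraries than in both pBABE libraries, and the ratios of Bcl2l11 to Mcl1 and of Bax to Bcl2l1 overlap.

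Levels of different genes were compared as CPM per kb. Per kb of the deposited length, which equals the whole gene span with introns for 7 of the 10 genes, Mcl1 was the highest, with a median of 51.1 over the 5 libraries, followed by Bax (16.0), Bcl2l2 (7.51), Bak1 (4.63), Bcl2l1 (2.74), Bbc3 (1.48), Pmaip1 (1.12), Bcl2l11 (0.535), Bmf (0.103) and Bcl2 (0.0944). In this order the ranges over libraries overlapped for Bbc3 and Pmaip1 and for Bmf and Bcl2. Per kb of summed exons, Mcl1 (65.7), Bax (52.9), Bcl2l1 (30.5) and Bak1 (17.7) led, and Bmf (0.411) came last after Bcl2 (1.82). The rank of Bcl2l1 therefore depended on the length used, because exons make up 8.98% of its span. With either length Mcl1 led the survival genes and Bax the effector genes.

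The pattern of Mcl1 over the 5 libraries was most like those of Gse1, Ewsr1 and Gm10563, out of 6230 genes averaging at least 5 on the log2 CPM scale. Their centred log2 CPM values differed from those of Mcl1 by a root mean square of 0.00857, 0.0148 and 0.0180. Like Mcl1, these genes had log2 fold changes between 0.17 and 0.18 and edgeR adjusted p-values between 0.197 and 0.227. Closeness to Mcl1 in these same libraries was the rule that chose them, so this likeness follows from the choice.

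Of 17 further BCL2 family genes, 8 were abundant enough to test, 1 rose and 1 fell. Over all genes tested, 4.42% were called higher and 3.52% lower. Bnip3, a mitophagy receptor gene induced by hypoxia, fell to 24.8, 34.3 and 27.3 CPM in caMNK, against 44.9 and 45.9 CPM in pBABE (log2 fold change −0.65 ± 0.134 (SE), adjusted p = 0.0251 by edgeR). The groups did not overlap, whereas the related Bnip3l overlapped, with 55.6, 59.7 and 49.5 CPM in caMNK and 59.0 and 55.1 CPM in pBABE. Bcl2l12 measured 14.99, 13.6 and 15.1 CPM in caMNK and 10.5 and 9.42 CPM in pBABE and rose 1.46-fold (adjusted p = 0.0277). It overlaps Irf3 and the antisense gene Gm15545, which had 6035 and 1912 counts against its 2391. Both calls were lost without either pBABE library and without caMNK replicate 1. Without pBABE replicate 1 the log2 fold changes were −0.68 for Bnip3 and 0.61 for Bcl2l12, and without pBABE replicate 2 they were −0.64 and 0.46. The fit without caMNK replicate 1 called 1.51% of all genes (adjusted p = 0.0990 for Bnip3 and 0.120 for Bcl2l12 by edgeR).

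The other tested relatives did not pass. Bok, a relative of the effectors, measured 25.6, 19.9 and 26.2 CPM in caMNK and 19.8 and 19.4 CPM in pBABE. The neighbours Bid, a BH3-only gene cut by caspase 8, and Bcl2l13 overlap by 913 bp and had log2 fold changes of −0.21 and −0.24 (adjusted p of 0.223 and 0.134). Bad, which overlaps Gpr137, had a log2 fold change of 0.03 and the sparse Bik one of −0.18. The 4 genes at 0 in every library were Bcl2a1a, Bcl2a1c, Bcl2a1d and Bcl2l10, and Bcl2a1b, another of the near-identical genes of the survival protein A1, had 1 read in all. Bcl2a1b is overlapped by Gm29094 on the same strand, with 394 counts, and Bcl2a1d by the antisense gene Gm10634, with 166, so a level of 0 for the A1 genes is uncertain.

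The further family genes above and the genes downstream and upstream of the family made 9 lists with 140 distinct genes other than the members. Of these 122 were tested, 3 rose and 2 fell (4.10%, where 7.94% of all genes were called). The rise of Bcl2l12 and the fall of Bnip3 are included. Of 16 tested caspase and apoptosome genes none passed in edgeR, and 5 had an unadjusted p under 0.05, as did 25.9% of all genes. The lowest p-values there were of Parp1, the caspase substrate (141 ± 1.88 CPM in caMNK and 172 ± 2.58 CPM in pBABE, adjusted p = 0.0575), and Apaf1, the apoptosome scaffold (35.3 ± 4.5 CPM in caMNK and 46.8 ± 0.498 CPM in pBABE, adjusted p = 0.0669; 0.0355 by DESeq2). Among 10 tested inhibitor of apoptosis genes and antagonists, Naip2 fell to 0.476 ± 0.0746 CPM in caMNK, against 1.14 ± 0.0135 CPM in pBABE (log2 fold change −1.27, adjusted p = 0.0256; 0.0526 by DESeq2). It belongs to a family of near-identical genes between which reads may be split. The call was lost without either pBABE library (log2 fold changes −1.296 and −1.265) and without caMNK replicate 1 (adjusted p = 0.0713 by edgeR). The fit without caMNK replicate 1 called 1.51% of all genes. DESeq2 called 1 rise and no fall in this list, where it called 10% of all genes. The rise was of Xaf1, an antagonist of XIAP picked here after its values were seen. Xaf1 was 67.8 ± 17.0 CPM in caMNK and 43.7 ± 6.68 CPM in pBABE (adjusted p = 0.00557 by DESeq2, 0.0498 by edgeR with total-count scaling and 0.0790 with TMM).

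The genes that control the members gave few calls. Of 18 tested transcription factor genes with members as known targets, Egr1 and Myc rose and none fell (median log2 fold change −0.17). Over all genes tested, 4.42% were called higher and 3.52% lower. Egr1 measured 106, 84.8 and 111 CPM in caMNK and 19.2 and 26.9 CPM in pBABE, 4.37-fold higher in caMNK (adjusted p = 0.00170). Myc measured 59.1, 65.7 and 58.1 CPM in caMNK and 45.9 and 47.7 CPM in pBABE, 1.30-fold higher (adjusted p = 0.0417). The caMNK and pBABE libraries did not overlap for either gene, which held for 44.9% of all tested genes. Egr1 passed with each library left out. Myc did not pass without either pBABE library (log2 fold changes 0.34 and 0.41) or without caMNK replicate 1 (adjusted p = 0.136 by edgeR). The fit without caMNK replicate 1 called 1.51% of all genes.

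Ubiquitin ligases and deubiquitinases set how long MCL1 and other members last. Among 13 tested genes of their list, which also holds the kinase genes Gsk3a and Gsk3b, none passed in edgeR and 3 had an unadjusted p under 0.05. Over all genes, 25.9% had such a p. Huwe1, a ligase gene of MCL1, measured 287, 328 and 238 CPM in caMNK and 379 and 423 CPM in pBABE (log2 fold change −0.49, adjusted p = 0.0567). Usp9x, the gene of a deubiquitinase that stabilizes MCL1, measured 128, 173 and 108 CPM in caMNK and 201 and 216 CPM in pBABE (log2 fold change −0.61, adjusted p = 0.0638). All 3 caMNK libraries were below both pBABE libraries for each of them, as for 22.6% of all tested genes. DESeq2, which called 10% of all genes, called both (adjusted p = 0.00788 and 0.00395). So did edgeR without caMNK replicate 2 (0.000148 and 3.69e-06), where 1 gene of the list rose and 4 fell. That edgeR fit called 13.9% of all genes as higher and 15.7% as lower. With a pBABE library left out, 1 is left in that group and neither gene passed. The log2 fold changes were then −0.58 and −0.42 for Huwe1 and −0.67 and −0.57 for Usp9x.

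No gene passed in edgeR in 4 further lists, of 12 tested mitochondrial membrane and fusion genes, 11 of the death receptor pathway, 19 of kinases and phosphatases and 15 of splicing factors. The list of kinases and phosphatases also holds Dynll1, Dynll2 and Ywhaz, which are neither. The 4 lists held 2, 3, 3 and 3 genes at an unadjusted p under 0.05, where 25.9% of all genes lay under it. The lowest p-values were of the fusion genes Mfn1 and Mfn2 (log2 fold changes −0.32 and −0.28), Cyld and Tnfsf10 (−0.43 and 0.94), Rps6ka1 and Akt2 (0.61 and −0.24) and Rbm25 and Hnrnpf (0.36 and −0.22). Without caMNK replicate 2, 12 genes of the 9 lists rose and 31 fell among 122 tested, or 35.2% where 29.6% of all genes were called.

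Of 19 mRNAs listed as sensitive to eIF4E, Mcl1, Bcl2l1 and Bcl2 included, 4 rose and none fell, where 4.42% of all genes were called higher and 3.52% lower (median log2 fold change 0.13). The rises were in the matrix protease genes Mmp9 (7.38-fold) and Mmp3 (2.77-fold), in the transcription factor gene Snai1 (2.16-fold) and in Myc. Mcl1, Bcl2l1 and Bcl2 did not pass. Without pBABE replicate 1 none of the 19 passed, where 0.132% of all genes did, and without pBABE replicate 2 it was 2, where 0.310% of all genes passed. With caMNK replicate 2 left out, 6 rose and 2 fell, where 29.6% of all genes were called. The members of this list were gathered with earlier results of these data known.

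**Figure D4:**
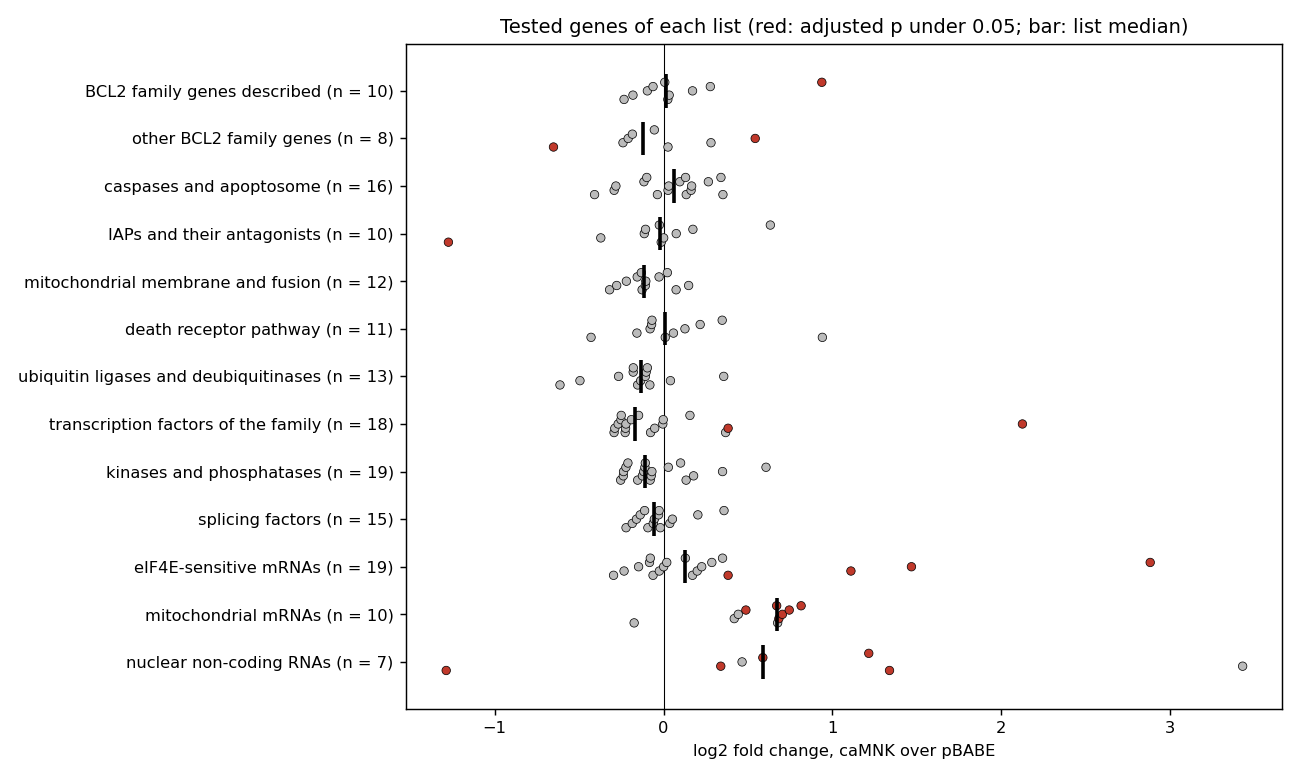
Log2 fold change of caMNK over pBABE for each tested gene of the 10 members and of each list, with list medians as bars and genes past the threshold in red. The members centre on 0.02 with Pmaip1 apart at 0.94, and the mitochondrial mRNAs centre on 0.67.

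**Figure D5:**
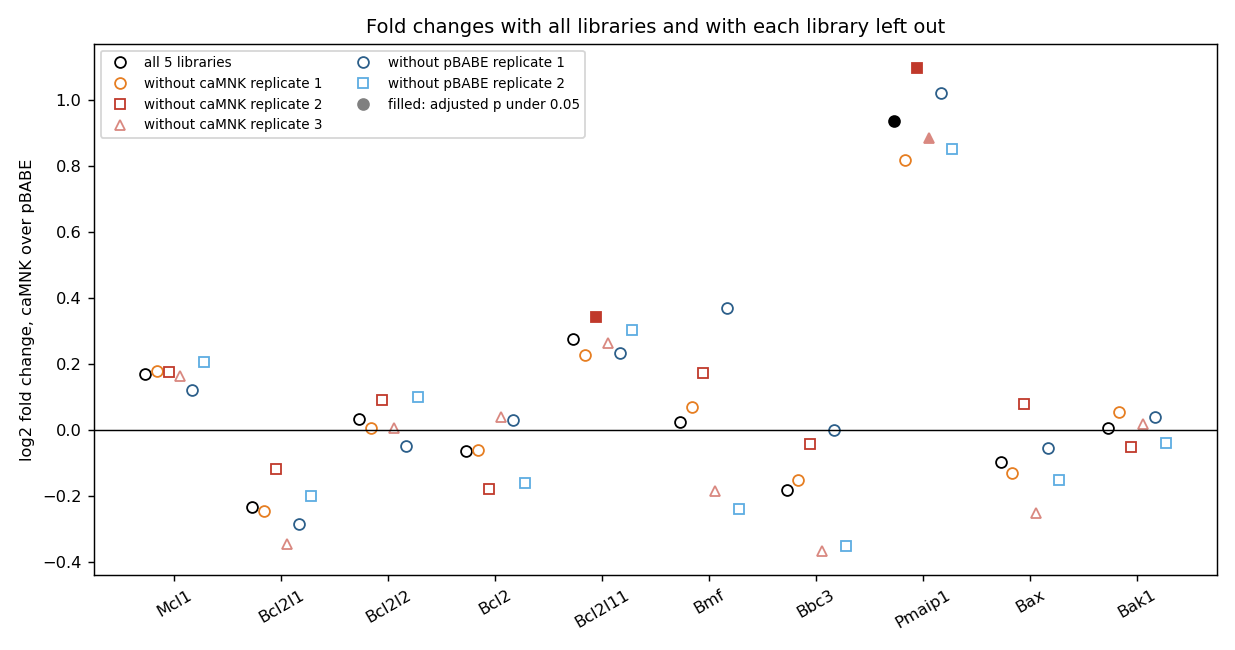
Log2 fold change of caMNK over pBABE for each of the 10 genes with all 5 libraries and with each library left out in turn; filled marks are past the threshold. Pmaip1 stays between 0.82 and 1.10 and is filled in the fits with all libraries, without caMNK replicate 2 and without caMNK replicate 3.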

How the data were processed

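Per the file headers, the authors deposited 1 table of raw read counts per library, with a gene symbol and a gene length in base pairs. The submitters' processing notes name build mm10 and, as tools, featureCounts 1.5.3, STAR 2.5.3, Trimmomatic 0.32, DESeq2, SAMtools 0.1.19 and FastQC 0.11.2. The annotation and the counting options, strand included, are not given in the sources; per the labels' protocols the kit marks strand. Of 44052 symbols matched to GENCODE M21 (same build), 37267 had a deposited length equal to the genomic span, and 0 of 28187 multi-exon genes had the summed exons. The lengths, and so probably the counts, cover introns, and reads of overlapping genes may not be told apart: an overlapping gene with 10% or more of a gene's counts is named beside it.

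Groups and replicate numbers came from the sample titles. Counts were fitted with edgeR 4.0.16 in R 4.3.3 (filterByExpr, TMM, robust quasi-likelihood test, group only, all 5 libraries), with Benjamini-Hochberg adjustment over 17026 genes and a threshold of 0.05. The SE was taken as the size of the log2 fold change over √F. Alternatives were DESeq2 1.42.0, limma-voom 3.58.1, other scalings and filters, a replicate block and each library left out. The fits were tested on simulated data. No 2 libraries matched within sampling noise (chi-square over its degrees of freedom at least 5.94).

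Members and lists were chosen with earlier results of these data known. The genes named are the members, Mknk1, tested BCL2 relatives, up to 5 called genes (or the 2 with lowest p) of each pathway list, overlapping genes and the 3 genes nearest to Mcl1; of the RNA class and cell marker lists, sums or a few levels are given. Summed marker levels in caMNK and pBABE were 13.8 to 18.6 and 13.6 to 15.3 CPM for immune, 870 to 1193 and 1018 to 1107 for fibroblast, 3.73 to 4.04 and 5.52 to 9.51 for endothelial and 5.30 to 5.33 and 3.87 to 3.98 for keratinocyte genes.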

Additional observations from a re-analysis of the deposited data

How the results depend on the processing

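Pmaip1 was past the threshold in 9 of 12 alternatives, with a log2 fold change of 0.82 to 1.10 when each library was left out, Bcl2l11 in 1, with 0.23 to 0.34, and Bcl2l1 in 1 (the block, below), with −0.34 to −0.12. Mcl1 passed in none (adjusted p 0.0633 to 0.756). Values around 0 changed sign with single libraries: leaving each out gave −0.048 to 0.10 for Bcl2l2, −0.18 to 0.041 for Bcl2, −0.24 to 0.37 for Bmf, −0.36 to 0.00081 for Bbc3, −0.25 to 0.080 for Bax and −0.052 to 0.056 for Bak1, which was −0.00075 without a filter on low counts. The number of members called was 0 to 2 when each library was left out, that of all genes 23 to 4942, against 1352 with all, and that of genes in the 9 apoptosis lists 1 to 43, against 5. Without a filter 2921 genes (10.4% of all genes then tested) and 18 list genes were called. DESeq2 and total-count scaling called 11 and 8 list genes, where they called 10% and 8.6% of all genes. The cause was not tested. Total-count scaling moved the median of all genes to 0.05 and gave 999 rises and 465 falls, against 753 and 599 with TMM.

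The replicate numbers are shared by the titles, but deviations of same-numbered libraries did not go together (correlations of −0.055 and −0.025), so they were not treated as pairs. A replicate block gave 2708 genes called, or 15.9% of all genes, with 2 of the 10 members and 14 of the 122 tested list genes. No pBABE library shares the number of caMNK replicate 3, so the block takes that library out of the comparison. Under the block Bcl2l1 was −0.35 (adjusted p = 0.0190), Bcl2 0.040 and Bmf −0.135. Leaving out a pBABE library leaves 1, which is assumed to vary like the caMNK libraries. Depth limits Bmf most, with 57 to 113 reads per library.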
